A study of Mus musculus with 14 samples.

Results

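Levels of 10 genes of bone matrix mineralisation and of the osteocyte, the cell embedded in bone, were followed across sorted stromal cells of mouse bone marrow. The genes were Ibsp, Dmp1, Mepe and Spp1 of the small integrin-binding glycoprotein family, the matrix protein gene Sparc, the osteocyte genes Phex, Sost, Fgf23 and Pdpn, and the transcription factor gene Irx5. Probe sets were taken where the array's annotation gave exactly one of these symbols, which found 16 probe sets for 9 of the 10 genes among 18193 symbols on the array. No probe set carried the symbol Spp1, so osteopontin was not analysed here. Of the 9 genes, 7 passed a filter on dim probe sets and were tested, and Sost and Fgf23 did not. Mepe passed that filter through its level in the osteoblast sort, so counts over the 7 tested genes describe them and support nothing further.

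The glycoproteins are secreted, acidic and rich in phosphate, and they bind both mineral and the integrins of bone cells. Osteoblasts lay down Sparc and Ibsp with type I collagen, and osteocytes take over Dmp1, Mepe, Phex, Sost and Fgf23 once they are enclosed in matrix. Dmp1 and Phex restrain Fgf23, a hormone that makes the kidney excrete phosphate, while sclerostin, the product of Sost, blocks Wnt signalling in osteoblasts. G-CSF is a cytokine given to release blood stem cells from marrow, and in mice it is known to lower osteoblast activity.

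In all, 14 one-colour Affymetrix arrays were compared in 4 groups. Osteoblasts sorted as CD45- ter119- CD31- GFP+ came from mice given G-CSF (3 arrays) and from untreated mice (3 arrays), and endothelial cells sorted as CD45- ter119- GFP- CD31+ from mice given G-CSF (4 arrays) and from untreated mice (4 arrays). All animals were pOBcol2.3-GFP mice on C57BL/6J, aged 6 to 8 weeks, in which a fragment of the type I collagen promoter drives GFP in osteoblasts and osteocytes. G-CSF was injected under the skin at 250 µg per kg, for 5 days according to the titles and protocol of the treated arrays. For the untreated arrays the protocol names 7 days and a vehicle. The labels do not say whether arrays of one group came from separate animals, so p-values measure only the spread between these arrays, which may be technical.

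The sorts were first checked against their markers. All 10 endothelial markers were lower in the osteoblast sort than in the CD31+ sort, with a median log2 difference of -3.64 after G-CSF and -3.93 in untreated mice. Osteoblast markers were far from absent in the CD31+ sort: the log2 of the summed intensity of the 5 tested of 8 osteoblast markers was 14.18 to 16.10 after G-CSF and 16.08 to 16.85 untreated, against 16.67 to 16.92 and 16.52 to 17.20 in the same conditions of the osteoblast sort. Some libraries stood apart. Untreated osteoblast replicate 2 had a summed neutrophil marker level of 18.06, against 15.80 and 15.42 in the other untreated osteoblast arrays, and a summed erythroid level of 14.02 against 11.52 and 11.93. G-CSF osteoblasts had neutrophil sums of 17.50 to 17.93 and erythroid sums of 9.26 to 10.85. Their neutrophil sums were above those of untreated osteoblast replicates 1 and 3 and below that of replicate 2, and their erythroid sums were below all 3. Untreated CD31+ replicate 1 had a summed skeletal muscle marker level of 16.94, against 11.43 to 12.80 in the other untreated CD31+ arrays, and leaving it out ended 1 call of the genes described here, that of Dmp1 between the sorts after G-CSF (adjusted p = 0.055 in limma). Results that rest on untreated osteoblast replicate 2 are given with and without it, and the part of blood cell RNA in them was not tested. In sorted bulk RNA, fewer cells of a type and less RNA per cell cannot be told apart.

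Dmp1, Ibsp and Mepe lie next to each other on chromosome 5, and the starts of several of these genes look alike. The 110 bases before the start of Ibsp (chr5:104299177-104299286, plus strand), Dmp1 at its second listed start (chr5:104202507-104202616, plus strand), Spp1 at its first (chr5:104435001-104435110, plus strand) and Sost (chr11:101967016-101967125, minus strand) are shown from RefSeq, build GRCm38.p6, because they share a spacing. Positions of genes are of the same build. Mepe (chr5:104325219-104325328, plus strand) is shown as a member of the same cluster without it. Capitals mark ATTGG, which is the CCAAT box read on the other strand, and TTTAAA or TTTATA, the second of which is TATAAA read on the other strand.

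Ibsp: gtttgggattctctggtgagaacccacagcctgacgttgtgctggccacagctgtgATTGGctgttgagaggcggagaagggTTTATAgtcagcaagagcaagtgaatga
Dmp1, start 2: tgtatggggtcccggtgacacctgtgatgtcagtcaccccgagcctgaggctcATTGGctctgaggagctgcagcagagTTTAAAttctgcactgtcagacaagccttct
Spp1, start 1: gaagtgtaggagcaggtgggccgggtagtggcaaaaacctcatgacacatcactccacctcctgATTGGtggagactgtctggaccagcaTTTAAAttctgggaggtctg
Sost: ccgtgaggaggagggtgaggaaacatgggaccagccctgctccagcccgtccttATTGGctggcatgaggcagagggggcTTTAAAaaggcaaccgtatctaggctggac
Mepe: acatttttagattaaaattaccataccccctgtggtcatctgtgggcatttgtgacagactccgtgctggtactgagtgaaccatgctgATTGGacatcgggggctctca

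In the first 4 sequences ATTGG begins exactly 26 bases before TTTAAA or TTTATA. The ATTGG stood at -54 in Ibsp, -57 in Dmp1, -46 in Spp1 and -56 in Sost, counted from the start site. On the strand of the gene this spacing occurred at 15 of the 32851 listed mouse starts, 0.0457%, in 11 genes, 4 of which belong to the 9 genes described here that the promoter table holds. It was noticed after the sequences had been read, so the count is a description. Single motifs were common: in the 250 bases before all starts and on either strand, CCAAT was found in 33.8%, TTTAAA in 12.1% and TATAAA in 12.4%. A match shows letters and not a bound factor, and the 4 genes were not all measured. Ibsp and Dmp1 were higher in the osteoblast sort after G-CSF, Sost was too dim to be tested and Spp1 had no probe set.

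**Figure D1:**
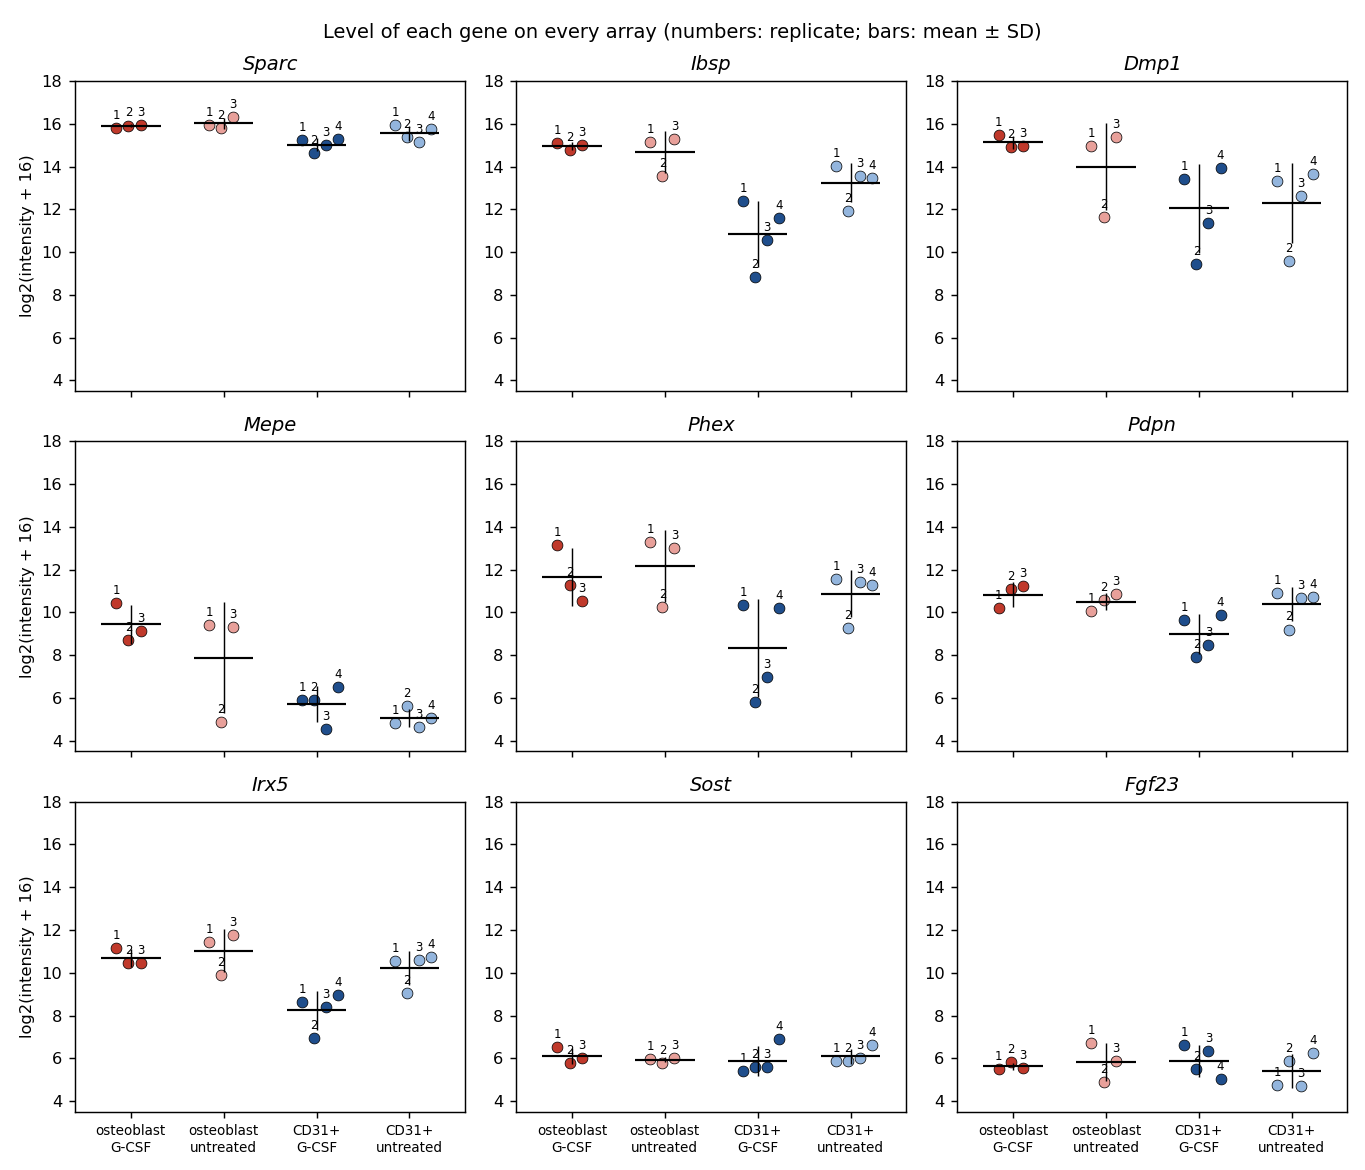
Level of each of the 9 measured genes on every array, as log2 of intensity plus 16, for the probe set that stood for the gene (the brighter one for Sost). Points are arrays numbered by replicate, lines are group means and bars are SD. Ibsp lies between 14.76 and 15.12 in G-CSF osteoblasts and between 8.83 and 12.40 in G-CSF CD31+ cells, and Sost and Fgf23 stay low in all 4 groups.

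Ibsp, bone sialoprotein, which starts mineral crystals on collagen and binds integrins through an RGD motif (Entrez 15891, chr5:104299287-104311472), differed between the sorts after G-CSF. Its log2 intensity was 15.12, 14.76 and 15.01 in G-CSF osteoblasts, against 15.16, 13.55 and 15.31 in untreated osteoblasts. In the CD31+ sort it was 12.40, 8.83, 10.57 and 11.58 after G-CSF, against 14.02, 11.94, 13.55 and 13.48 in untreated mice. By mean the osteoblast groups were highest, untreated CD31+ cells came next and G-CSF CD31+ cells were lowest. Neighbouring groups in that order overlapped, and the G-CSF groups of the sorts did not.

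Dmp1, dentin matrix protein 1, an early osteocyte matrix protein whose loss causes phosphate wasting (Entrez 13406, chr5:104197575-104214102), had the same osteoblast pattern but a different one in the CD31+ sort. Its log2 intensity was 15.48, 14.92 and 14.97 in G-CSF osteoblasts, against 14.94, 11.65 and 15.38 in untreated osteoblasts. The CD31+ values were 13.43, 9.43, 11.36 and 13.95 after G-CSF, against 13.33, 9.56, 12.60 and 13.67 untreated. The CD31+ replicate numbers ranked in the same order under both conditions, with replicate 2 the lowest.

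Mepe, matrix extracellular phosphoglycoprotein, whose acidic peptide inhibits mineralisation (Entrez 94111, chr5:104325329-104338611), was well above the dim range on 5 of the 6 osteoblast arrays. It had 10.46, 8.73 and 9.12 in G-CSF osteoblasts, against 9.42, 4.88 and 9.33 in untreated osteoblasts. CD31+ cells had 5.91, 5.90, 4.54 and 6.51 after G-CSF, against 4.84, 5.62, 4.65 and 5.04 untreated. All but one of the CD31+ arrays were thus below 6.01, the mean level at which a probe set was dropped as dim, and so was untreated osteoblast replicate 2.

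Sparc, osteonectin, a collagen- and calcium-binding protein of bone and of many other tissues (Entrez 20692, chr11:55394159-55420080), was bright on every array. It had 15.82, 15.92 and 15.96 in G-CSF osteoblasts, against 15.94, 15.81 and 16.30 in untreated osteoblasts. It had 15.22, 14.63, 14.99 and 15.30 in G-CSF CD31+ cells, against 15.95, 15.40, 15.16 and 15.75 in untreated CD31+ cells. The osteoblast groups overlapped with each other and with untreated CD31+ cells, and every G-CSF CD31+ array lay below all osteoblast arrays.

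Phex is a membrane endopeptidase of osteoblasts and osteocytes whose loss causes X-linked hypophosphataemia (Entrez 18675, chrX:157162075-157415286). It had 13.17, 11.29 and 10.53 in G-CSF osteoblasts, against 13.29, 10.27 and 12.99 in untreated osteoblasts. It had 10.34, 5.83, 6.97 and 10.21 in G-CSF CD31+ cells, against 11.56, 9.25, 11.44 and 11.27 in untreated CD31+ cells. All 4 groups were widely spread, with an SD of 1.36 in G-CSF and 1.67 in untreated osteoblasts, and of 2.29 in G-CSF and 1.09 in untreated CD31+ cells.

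Pdpn, podoplanin, marks osteocytes as they form processes and is also found on lymphatic endothelium and fibroblastic stroma (Entrez 14726, chr4:143267409-143299564). It had 10.19, 11.09 and 11.23 in G-CSF osteoblasts, against 10.06, 10.59 and 10.85 in untreated osteoblasts. It had 9.65, 7.91, 8.48 and 9.87 in G-CSF CD31+ cells, against 10.93, 9.20, 10.68 and 10.72 in untreated CD31+ cells. The untreated CD31+ arrays overlapped with both osteoblast groups, and every G-CSF CD31+ array lay below all osteoblast arrays.

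Irx5, an Iroquois homeobox transcription factor with roles in mouse skeletal and limb patterning (Entrez 54352, chr8:92357796-92361456), had 11.16, 10.44 and 10.47 in G-CSF osteoblasts, against 11.45, 9.91 and 11.77 in untreated osteoblasts. It had 8.65, 6.94, 8.39 and 8.98 in G-CSF CD31+ cells, against 10.55, 9.06, 10.61 and 10.73 in untreated CD31+ cells. It was the only one of the 7 tested genes whose G-CSF and untreated CD31+ arrays did not overlap, against 10.6% of all 12830 genes tested.

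Sost, sclerostin, and Fgf23, the phosphate hormone, are textbook products of mature osteocytes, and neither had a probe set whose mean passed the filter. The brighter Sost probe set ran from 5.78 to 6.51 in G-CSF osteoblasts and 5.80 to 6.03 in untreated osteoblasts, and from 5.41 to 6.89 in G-CSF CD31+ cells and 5.86 to 6.62 in untreated CD31+ cells. The other Sost probe set averaged between 4.30 and 4.56 in all groups. Fgf23 ran from 5.50 to 5.82 and from 4.91 to 6.70 in G-CSF and untreated osteoblasts, and from 5.02 to 6.64 and from 4.70 to 6.25 in G-CSF and untreated CD31+ cells. The mean of the brighter Sost probe set, 5.99, lay just under the filter's 6.01, and all 4 groups of each gene overlapped. At this signal a difference was not detectable, which does not show that the cells lack the transcripts.

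In the osteoblast sort, the question was whether G-CSF changed these genes in the cells that make them. None of the 7 tested genes passed the test between G-CSF and untreated osteoblasts, where 26 of 12830 genes passed, 0.203%. The test here and throughout was limma's moderated test on a model of the 4 group means, with p-values adjusted by Benjamini and Hochberg over all 12830 genes, and a gene passed at an adjusted p under 0.05. Without the adjustment 1143 genes had a p under 0.05, and none of the 7 did, the lowest being 0.112 for Mepe. The largest values were Mepe at 1.56 ± 0.92 on the log2 scale (SE; 95% interval -0.41 to 3.53; adjusted p = 0.684) and Dmp1 at 1.14 ± 1.21 (-1.45 to 3.72; adjusted p = 0.875). Ibsp stood at 0.28 (-1.29 to 1.85) and Phex at -0.52 (-2.97 to 1.93), so changes of several fold in either direction lay inside the intervals.

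The Mepe and Dmp1 values rested on untreated osteoblast replicate 2. Without that array Mepe stood at 0.06 (-1.12 to 1.24) and Dmp1 at -0.03 (-2.56 to 2.49), and Ibsp turned to -0.28. Phex stood at -1.48 (-3.97 to 1.01) and Irx5 at -0.92 (-2.09 to 0.24) without it, against -0.52 and -0.35 with it. No gene of the 7 passed without it either, though 479 of the 12830 genes then did. Sparc stood at -0.12 (-0.61 to 0.37) with all arrays and -0.22 (-0.75 to 0.31) without that one.

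**Figure D2:**
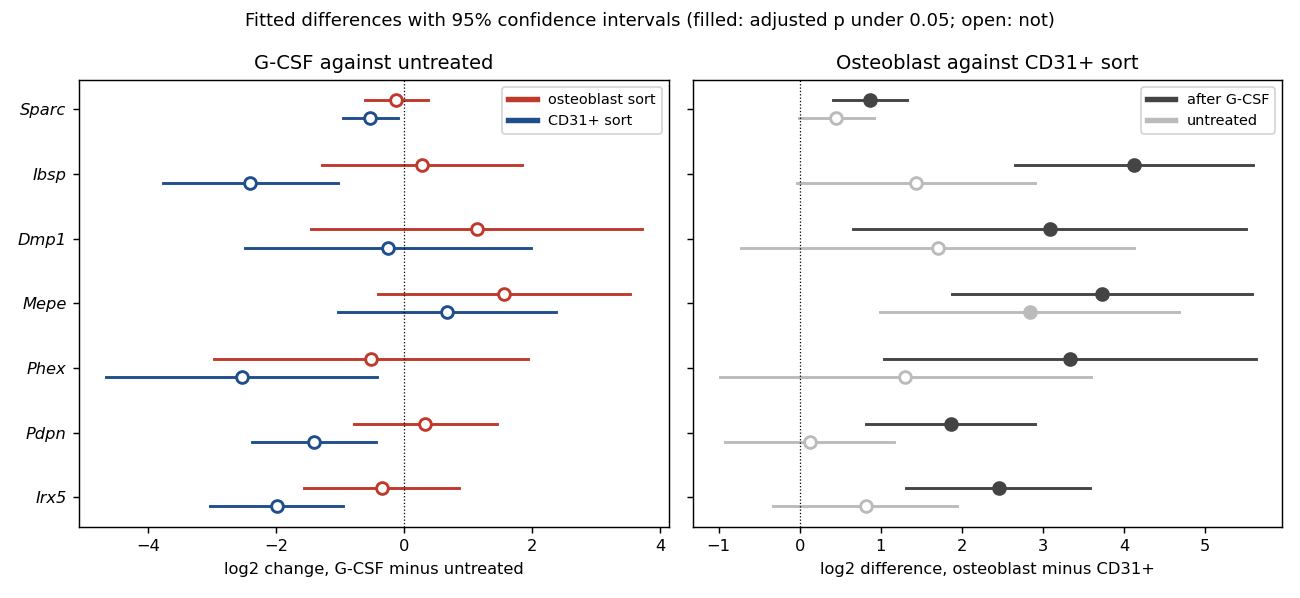
Fitted log2 differences with 95% intervals for the 7 tested genes; filled points have an adjusted p under 0.05. On the left, G-CSF minus untreated, with the osteoblast sort above the CD31+ sort for each gene: all 14 points are open, and Ibsp stands at 0.28 in osteoblasts and -2.40 in CD31+ cells. On the right, osteoblast minus CD31+ sort: all 7 are filled after G-CSF and Mepe alone in untreated mice.

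In the CD31+ sort, 5 of the 7 genes were lower after G-CSF in all 4 pairs of arrays with the same replicate number, and Dmp1 and Mepe were not. Of all 12830 genes 18.3% were lower in all 4 pairs. The 5 genes ran together over the 8 CD31+ arrays of both conditions (r of 0.804 to 0.975 between any pair of them), so they are not 5 separate results. In the model without pairing none of the 7 passed, although 215 of 12830 genes did, 1.68%. Without the adjustment 1720 genes had a p under 0.05, among them Sparc, Ibsp, Phex, Pdpn and Irx5. Irx5 came nearest, 3.99-fold lower at a log2 change of -1.99 ± 0.49 (SE; adjusted p = 0.0549), then Ibsp, 5.28-fold lower at -2.40 ± 0.64 (adjusted p = 0.0745). Pdpn stood at -1.40 ± 0.45 (adjusted p = 0.136), Phex at -2.54 ± 0.99 (adjusted p = 0.246) and Sparc at -0.53 ± 0.20 (adjusted p = 0.225). The remaining values were -0.25 ± 1.05 for Dmp1 and 0.67 ± 0.80 for Mepe. The median over the 7 genes was -1.40, against -0.05 over all genes tested. Leaving out untreated osteoblast replicate 2, which enters this test only through the shared spread, made Irx5 (adjusted p = 0.0185) and Ibsp (adjusted p = 0.0341) pass. In that fit 4.36% of all genes passed.

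With the replicate number as a block the changes kept their size and the errors narrowed, so that 5 of the 7 genes passed. In that fit 521 genes were lower, 4.06% of those tested. The labels number the arrays but do not state that equal numbers are paired. The pairing was inferred from these same data, and CD31+ replicate 4 correlated more with another number (0.198) than with its own (0.11). The calls of the block fit rest on that inference. Ibsp fell by 2.40 ± 0.29 (adjusted p = 0.00269), Irx5 by 1.99 ± 0.25 (adjusted p = 0.00299), Pdpn by 1.40 ± 0.21 (adjusted p = 0.00578), Sparc by 0.53 ± 0.13 (adjusted p = 0.0429) and Phex by 2.54 ± 0.62 (adjusted p = 0.047). Dmp1 did not pass (-0.25, 95% interval -1.33 to 0.83; adjusted p = 0.855), and neither did Mepe (0.67, -0.56 to 1.91; adjusted p = 0.6). The Ibsp difference was -1.62, -3.11, -2.99 and -1.89 in pairs 1 to 4, and that of Irx5 was -1.89, -2.12, -2.22 and -1.74. Phex varied more between pairs, at -1.22, -3.42, -4.46 and -1.07, whereas Dmp1 was above 0 in 2 pairs and below 0 in 2.

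Markers of other cells were also lower in these arrays. Summed osteoblast markers in the CD31+ sort were lowest in G-CSF replicate 2, at 14.18, the array with the lowest Ibsp, Phex, Pdpn and Irx5. Summed fibroblast and tendon markers, 8 of 8 tested, were 14.44, 11.85, 12.95 and 14.28 in G-CSF CD31+ cells, against 15.66, 14.11, 15.34 and 15.30 in untreated CD31+ cells. The lists of erythroid, B lineage and muscle markers had negative medians too: the median change was -2.95 over 5 erythroid markers, of which 2 fell, -1.52 over 8 B lineage markers and -1.66 over 8 skeletal muscle markers, of which none passed. The median over 9 neutrophil markers was 0.59, and none passed. Summed erythroid markers were 9.24 to 12.24 after G-CSF and 11.91 to 13.68 untreated, and summed B lineage markers 10.21 to 11.72 and 11.84 to 13.37. Summed muscle markers were 10.09 to 12.03 after G-CSF, against 16.94 in untreated replicate 1. The other untreated arrays had 11.43 to 12.80 and overlapped with the G-CSF arrays. Endothelial markers stayed close: their summed level was 16.45 to 16.74 after G-CSF and 16.50 to 16.76 untreated, and 0 of 10 passed, with a median of 0.03. The part of osteoblast, fibroblast, blood or muscle RNA within the CD31+ sort in these 5 decreases was not tested.

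**Figure D3:**
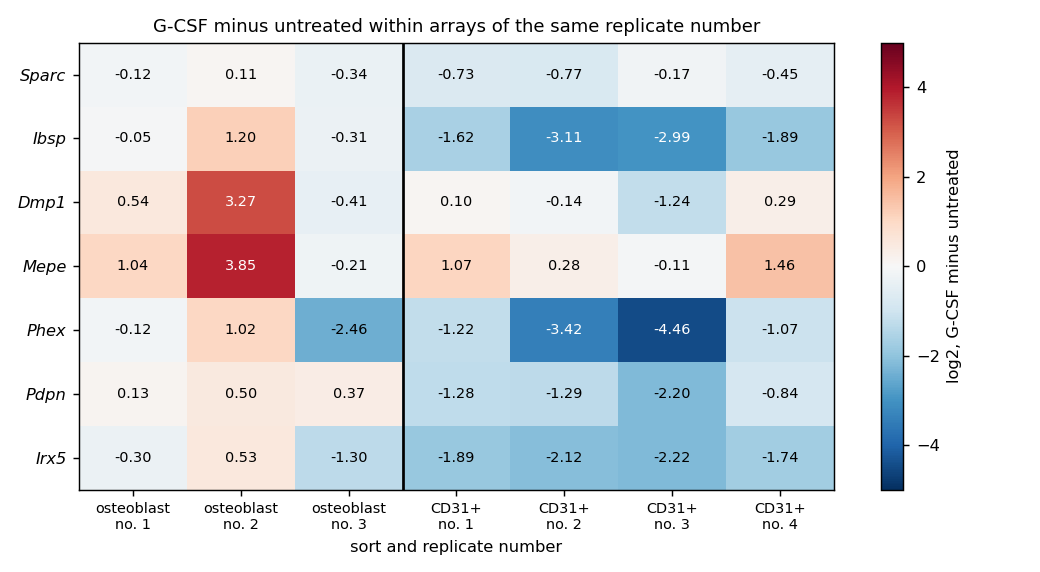
Difference in log2 intensity, G-CSF minus untreated, for each pair of arrays with the same replicate number; columns are the 3 osteoblast and 4 CD31+ pairs and rows the 7 tested genes. The CD31+ columns are negative in all 4 pairs for Sparc, Ibsp, Phex, Pdpn and Irx5, and osteoblast pair 2 has the highest values for Dmp1 (3.27) and Mepe (3.85).

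**Figure D4:**
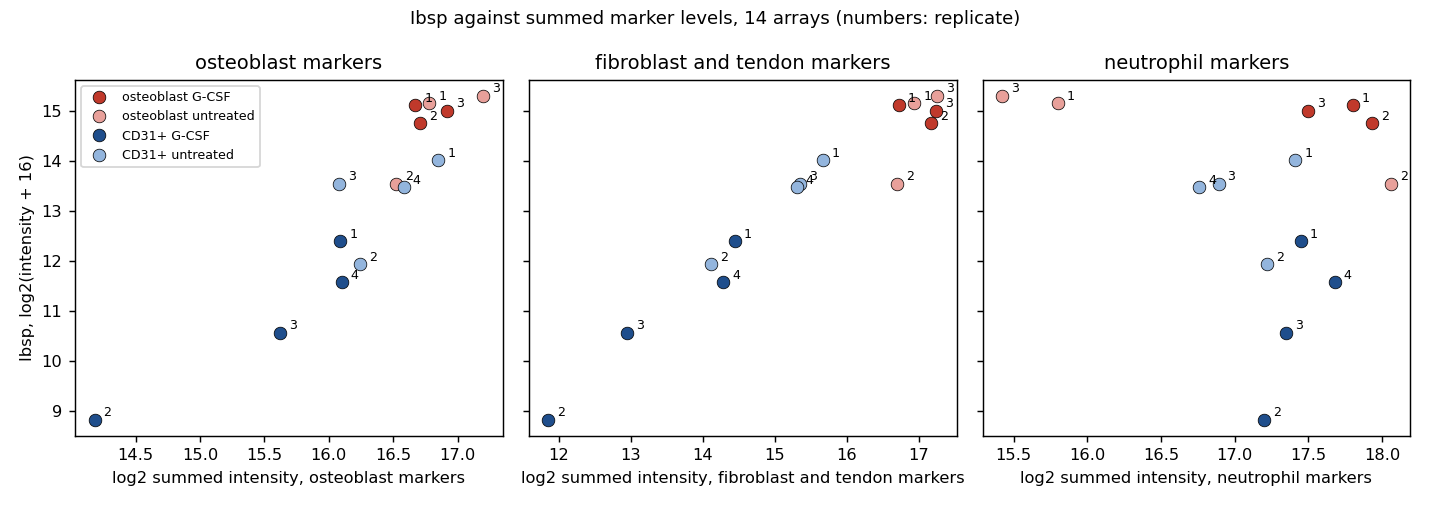
Ibsp, as log2 of intensity plus 16, against the log2 summed intensity of osteoblast, fibroblast and tendon, and neutrophil markers on 14 arrays numbered by replicate. The G-CSF CD31+ array with the lowest Ibsp, 8.83, has the lowest osteoblast sum, 14.18, and the lowest fibroblast and tendon sum, 11.85, and untreated osteoblast replicate 2 has the highest neutrophil sum, 18.06.

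Whether G-CSF acted differently in the sorts was tested as the difference of the changes, osteoblast minus CD31+. None of the 7 genes passed, nor did any of the 12830 genes tested (0%), and 581 had an unadjusted p under 0.05. The values were 2.68 ± 0.97 for Ibsp (SE; 95% interval 0.60 to 4.76; adjusted p = 0.904), 1.74 ± 0.69 for Pdpn (adjusted p = 0.955) and 1.64 ± 0.75 for Irx5 (adjusted p = 1). With the replicate block 1 gene passed, 0.00779%, which was none of the 7, and Ibsp had an adjusted p of 0.104. Without untreated osteoblast replicate 2, Ibsp stood at 2.12, Pdpn at 1.78 and Irx5 at 1.07. Phex moved from 2.02 to 1.07, Dmp1 from 1.39 to 0.22 and Mepe from 0.89 to -0.61. None of the 7 passed in that fit, where 0.164% of all genes did. The changes were therefore not shown to differ between the sorts.

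The sorts themselves were compared within each condition. After G-CSF all 7 tested genes were higher in the osteoblast sort than in the CD31+ sort and passed, where 17.9% of all genes were higher and passed, and their groups did not overlap, against 40.3% of all genes. Ibsp was 17.3-fold higher (log2 4.12 ± 0.69, SE; adjusted p = 0.000316) and Phex 10-fold (3.33 ± 1.07; adjusted p = 0.0267). Mepe had an estimate of 9.86-fold when the 3 of 4 CD31+ arrays under the filter level of 6.01 were set to it. The test used the measured values, with means of 9.44 in osteoblasts and 5.71 in CD31+ cells (log2 3.72, 95% interval 1.88 to 5.57, adjusted p = 0.00392). As Mepe was tested only for its level in osteoblasts, that call describes it and supports nothing. Irx5 was 5.45-fold higher (2.45 ± 0.53; adjusted p = 0.00242), Pdpn 3.62-fold (1.86 ± 0.49; adjusted p = 0.00856) and Sparc 1.82-fold (0.87 ± 0.21; adjusted p = 0.00611). Dmp1 was 8.47-fold higher (3.08 ± 1.13), with an adjusted p of 0.0488 that many alternatives moved past the threshold, among them leaving out any 1 of the 3 G-CSF osteoblast arrays (0.0939 to 0.121). Phex lost its call without G-CSF osteoblast replicate 1 (0.123) or 2 (0.0528), or without G-CSF CD31+ replicate 2 (0.0812) or 3 (0.0708), and Sparc lost its call under quantile normalisation (0.0913) and median centring (0.0895). Pdpn lost its call (0.105) with a batch term that sets osteoblast replicates 2 and 3 apart, the arrays whose values were given with more decimals. With the actin 3′ to 5′ ratio, a measure of RNA quality, as a covariate, Dmp1 (0.174), Phex (0.0558) and Pdpn (0.0526) lost their calls.

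In untreated mice 1 of the 7 genes passed, where 14.1% of all genes were higher in the osteoblast sort and passed. It was Mepe, with an estimate of 3.64-fold when all 4 CD31+ arrays, which lay under the filter level, were set to it. Untreated osteoblast replicate 2, also under it, was left as measured, so this is not a lower limit. The test used the measured values, with means of 7.88 and 5.04 (log2 2.84, 95% interval 0.99 to 4.68, adjusted p = 0.0237). This too is a description of a gene tested only for its level in osteoblasts, and the call ended without untreated osteoblast replicate 1 (0.133) or 3 (0.129) or untreated CD31+ replicate 3 (0.0538). By the probe set that stood for each gene, the other 6 were also on the higher side, from 0.12 (95% interval -0.92 to 1.16) for Pdpn to 1.70 (-0.72 to 4.12) for Dmp1, with adjusted p from 0.139 to 0.889. Without untreated osteoblast replicate 2, the Mepe estimate with CD31+ arrays at the filter level was 10.3-fold. Its measured values gave log2 4.34 (adjusted p = 2.41e-05). Ibsp then passed at 1.99 (adjusted p = 0.0441), with Dmp1 at 2.87 (adjusted p = 0.0599) and Phex at 2.26 (adjusted p = 0.127). Of all genes 16.8% were then higher and passed. The comparisons with G-CSF and between the sorts share arrays, and the gap between 7 and 1 genes is the difference of changes above, for which none passed.

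Where a gene had several probe sets, they were fitted singly. All 3 Sparc probe sets and both Ibsp probe sets were higher in osteoblasts after G-CSF and passed, the second Ibsp probe set at 4.54 and 23.3-fold. That probe set, the dimmer of the pair, also passed in untreated mice (4.6-fold higher; adjusted p = 0.0211), where the brighter one did not (1.43; adjusted p = 0.167). Of the 3 Dmp1 probe sets, whose differences were 3.55, 3.08 and 3.00, only the first passed in that fit. The second Phex probe set was dim, with group means from 4.50 to 5.97, and stood at 0.95 (adjusted p = 0.328). Under G-CSF in the CD31+ sort the second Sparc probe set stood at -1.01 and the second Ibsp probe set at -1.78, neither past the threshold.

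The genes around the glycoprotein cluster did not follow it. In order along chromosome 5 the annotation gives Aff1, Klhl8, Hsd17b13, Hsd17b11, Nudt9, Sparcl1, Dspp, Dmp1, Ibsp, Mepe, Spp1, Pkd2 and Abcg3, of which Dspp and Pkd2 were not tested. Sparcl1, a relative of Sparc, was lower in the osteoblast sort, by log2 -3.17 ± 0.27 after G-CSF (SE; adjusted p = 6.86e-07) and -3.83 ± 0.27 in untreated mice (adjusted p = 1.75e-07). The other tested genes flanking the cluster on chromosome 5 passed in neither comparison of the sorts nor under G-CSF. Abcg2, listed here as a neighbour, lies on chromosome 6 in the mouse and was lower in the osteoblast sort by -2.04 after G-CSF and -1.40 untreated.

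**Figure D5:**
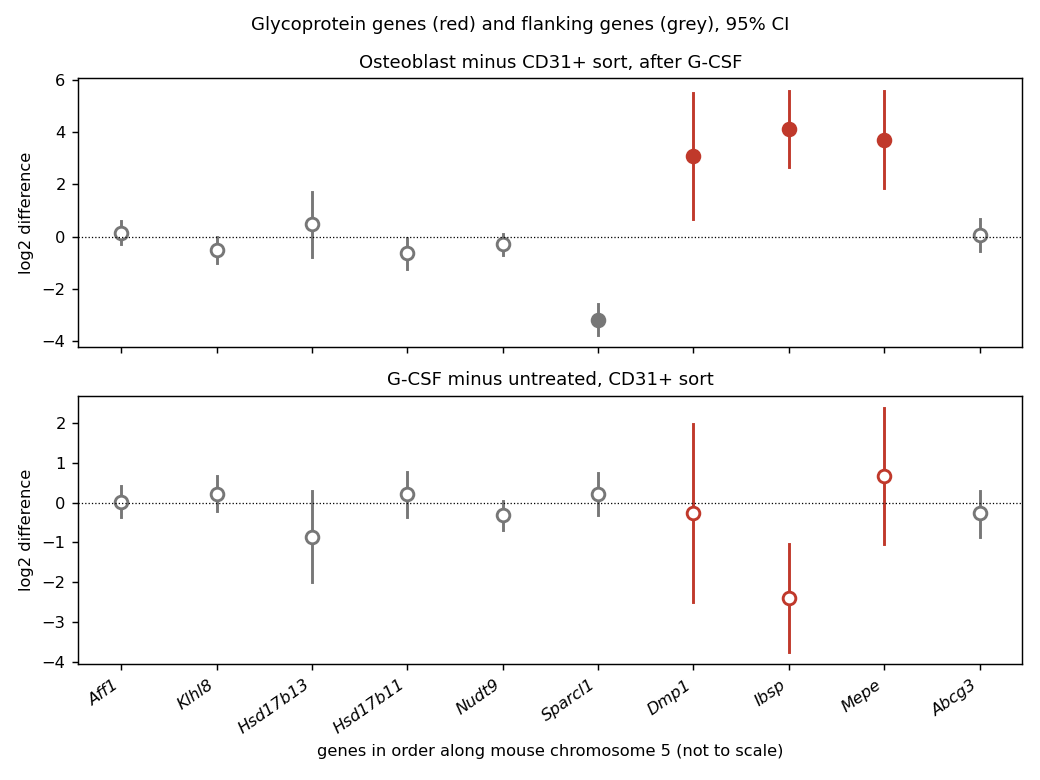
Log2 differences with 95% intervals for the tested genes in their order along chromosome 5, not to scale, with the glycoprotein genes in red and flanking genes in grey; filled points have an adjusted p under 0.05. After G-CSF, Dmp1, Ibsp and Mepe are higher in the osteoblast sort, at 3.08, 4.12 and 3.72, and Sparcl1 is lower, at -3.17. Under G-CSF in the CD31+ sort no point is filled.

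Genes that work with these proteins were counted in the same fit, against the same shares of all genes. Under G-CSF in the osteoblast sort none passed in any of the 10 lists of such genes. Among CD31+ cells 0 of 9 integrin and CD44 receptors and 0 of 11 proteases passed. Of all genes 1.19% were lower there and passed. Of the phosphate and mineral genes 1 of 9 fell, Alpl, the phosphatase that frees phosphate for mineral (-1.59 ± 0.33, SE; adjusted p = 0.0316). Of the osteoblast genes 2 of 9 fell, the parathyroid hormone receptor gene Pth1r (-2.19; adjusted p = 0.0479) and the proteoglycan gene Ogn (-1.62; adjusted p = 0.0185). The median change of the 9 osteoblast genes was -1.62 and that of the 11 proteases -0.81, against -0.05 over all genes. The neuropeptide gene Npy, 1 of 12 other osteocyte genes, fell by 2.55 (adjusted p = 0.031). In the osteoblast sort Npy stood at -2.87 without passing (adjusted p = 0.0817). The matrix protein gene Smoc1, 1 of 5 of the Sparc family, fell by 1.32 (adjusted p = 0.0472). The homeobox gene Irx3, 1 of 2 tested relatives of Irx5, fell by 1.16 (adjusted p = 0.0294). No gene of the sclerostin pathway (9 tested) or of the podoplanin partners (6 tested) passed, the largest values being Wif1 at -2.08 (adjusted p = 0.174) and Clec1b, the podoplanin receptor, at -0.42.

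Between the sorts after G-CSF, list medians were 3.78 for the osteoblast genes, 2.31 for the proteases and 2.16 for the phosphate and mineral genes, against 0.01 over all genes. Of all genes 17.9% were higher and passed. Of the phosphate and mineral genes 7 of 9 were higher, led by the vitamin D receptor gene Vdr (3.68) and Alpl (3.03), and 8 of 9 osteoblast genes, led by Ogn (7.34) and Omd (6.00). Of the proteases 8 of 11 were higher, among them Mme (4.17) and the collagenase gene Mmp13 (3.93), and of the receptors 5 of 9, led by the integrin genes Itgav (1.99) and Itgb5 (1.58). Of the other osteocyte genes 6 of 12 were higher, led by the receptor phosphatase gene Ptprz1 (4.74), and of the sclerostin pathway 6 of 9, led by the Wnt inhibitor genes Wif1 (4.00) and Sfrp4 (3.92), of which Wif1 is in both lists. In untreated mice the counts were 4 of 9, 5 of 9, 4 of 11, 4 of 9, 5 of 12 and 5 of 9 in the same order, with none lower. Of all genes 14.1% were then higher and passed. The Sparc family had 3 of 5 higher after G-CSF, with Smoc2 at 3.85, and Irx3 was higher at 1.87. Of the podoplanin partners Cd44 was higher (1.23), and Lgals8 (-0.88) and Msn (-0.77) were lower.

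The genes whose levels ran most like Ibsp, Dmp1 and Phex were ranked by Pearson's r of log2 values over the 8 CD31+ arrays and the 6 osteoblast arrays. These are descriptions over arrays that share a treatment and a sort, and some gene will always rank highest among 12830. In the CD31+ sort Ibsp ran with Col5a1 (r = 0.998), Creb3l1, Tmem119, Hpgd and Fap (0.995), and Phex with Mmp23 (0.989), Col6a1, Ndrg4, Lox and Pcsk6 (0.983). Dmp1 ran with other genes, Mia (0.972), Pcolce2, Gnat2, Ptn and Panx3 (0.968). Spearman's rho was 0.857 or more for all of these genes. Without the 2 arrays farthest from the median, r was 0.985 or more for the Ibsp genes and 0.85 or more for the Dmp1 genes.

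In the osteoblast sort the nearest genes to Dmp1 were Slc12a8 (r = 0.995), Acadsb, Ptx3, Esyt2 and Tmem65, and r fell to between 0.578 and 0.836 without untreated replicate 2 and to between 0.291 and 0.796 without the 2 arrays farthest from the median. Ibsp ran with Xist, Dbt, Pcdhb22, Rnd3 and Pabpc4l (0.992 to 0.993, and 0.896 to 0.923 without that array). Without the 2 farthest arrays r was 0.992 for Xist and 0.6 to 0.801 for the other 4. Phex ran with Kank1 (0.997), Zbtb43, the transcription factor gene Mef2c (0.994), Sema3b and Zfp934, with r of 0.981 or more without that array and 0.955 or more without the 2 farthest. No gene was named for more than 1 of the 3 in either sort.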

How the data were processed

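Total RNA of the sorted cells was extracted with Trizol and biotinylated from 100 ng, per the labels' protocols. The deposited values are 1 linear intensity per probe set and array, made by the authors with Affymetrix Expression Console 1.1 per the submitters' processing notes; the summary algorithm is not given in the sources used here. Trimmed means of 499.8 to 499.9 show that the authors had scaled the arrays, so none was normalised again. Of 45101 probe sets, 64 controls, 932 with several symbols and 9160 with none were left out. Values became log2 of intensity plus 16, the dimmest fraction of 0.333 was dropped, and the brightest probe set stood for its gene, leaving 12830 genes. The model of 4 group means on 14 arrays was fitted in limma 3.58.1 under R 4.3.3, with a variance trend, after testing on simulated data. Same-numbered arrays of a sort deviated together (r of 0.235 to 0.336 in osteoblasts and 0.11 to 0.4 in CD31+ cells), though CD31+ replicate 4 correlated more with another number (0.198) than its own (0.11), so the numbers were taken to pair G-CSF with untreated arrays. Array number limits the precision. The genes named are the 10 members, the 5 nearest to 3 of them, and of each list up to 4 that passed by size, or the 2 largest, those that bear on a result being printed. The members and lists were chosen with earlier results of these data known.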

Additional observations from a re-analysis of the deposited data

Results flagged for a closer look

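In untreated CD31+ cells 1 array, replicate 2, lay far below the other 3 for 3 genes. The gap from it to the next array, as a share of the range of the group, was 0.874 for Phex (9.25 against 11.27 to 11.56), 0.858 for Pdpn (9.20 against 10.68 to 10.93) and 0.892 for Irx5 (9.06 against 10.55 to 10.73). All 3 exceed the limit for 4 arrays at which chance alone marks about 1 group in 20. The ratio was taken for the 7 tested genes in both CD31+ groups, and the share of all genes over the limit was not counted. Phex, Pdpn and Irx5 also ran together over the 8 CD31+ arrays (r of 0.904 to 0.975), so these are not 3 separate departures. Untreated CD31+ replicate 2 had the lowest summed fibroblast and tendon markers of its group, 14.11 against 15.30 to 15.66. Its G-CSF partner of the same number was the lowest of its own group for these genes. Leaving out the lowest untreated array widens the G-CSF difference by construction, so the calls that Pdpn, Irx5 and Ibsp gain without it support nothing.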

How the results depend on the processing

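In G-CSF against untreated CD31+ cells, where 0 of 7 genes passed, 1 passed with only the arrays compared, 5 with the replicate block within each sort, 3 with the block across sorts, 2 with array weights, and 0 to 3 when 1 array was left out. In osteoblast against CD31+ cells untreated, where 1 passed, 0 passed with a filter at the median of the probe sets (Mepe then being untested), 2 when probe sets were averaged per gene, 0 with only the arrays compared, 4 with the block across sorts, 2 with array weights, 3 without untreated osteoblast replicate 2 and untreated CD31+ replicate 1, 0 with osteoblast replicates 2 and 3 alone, and 0 to 3 when arrays were left out. Same-numbered arrays of different sorts shared only a number (r from -0.0133 to 0.282), so the block across sorts is no paired design. After G-CSF 4 of 7 passed with the actin 3′ to 5′ ratio as a covariate, which ran from 2.624 to 11.03 and was highest in osteoblast replicate 3 of both conditions. That covariate, a batch term from the printed decimals and osteoblast replicates 2 and 3 alone were chosen after seeing the data. The replicate block within sorts changed no other call of a member under G-CSF or in the difference of the changes. That block cannot estimate the comparisons between the sorts, so those calls were not refitted with it. In the main fit 14.1% of all genes were higher in the osteoblast sort and passed in untreated mice, and 17.9% after G-CSF. The shares under most alternatives are not set beside the member counts above, so those counts describe the 7 genes only.

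Genes passing under G-CSF in osteoblasts numbered 26, but 2 with only the arrays compared, 51 and 15 with the blocks, 187 with array weights, 51 with the actin covariate, 3 with replicates 2 and 3 alone, 428 without untreated osteoblast replicate 2 and untreated CD31+ replicate 1, and 4 (without G-CSF replicate 1) to 479 (without untreated replicate 2) with 1 array left out. In CD31+ cells 215 became 105 under quantile normalisation, 468 with only the arrays compared, 660 and 507 with the blocks, 1058 with array weights, 122 with the actin covariate, and 29 (without untreated CD31+ replicate 4) to 559 (without untreated osteoblast replicate 2). For the difference between sorts 0 became at most 21, without untreated osteoblast replicate 2. Fitting every probe set singly gave 5946 and 7273 probe sets between the sorts untreated and after G-CSF, against 3519 and 4233 genes. Median centring moved the median of all genes between the sorts after G-CSF to -0.38. Of the calls there 26.4% were higher with median centring and 45.8% with quantile normalisation, against 54.2% in the main fit. With either scaling 5 of the 7 genes were higher and passed. Of all 12830 genes 1418 did so with median centring and 1920 with quantile normalisation. In CD31+ cells under G-CSF the share of higher calls was 57.2% with median centring, 36.2% with quantile normalisation and 28.8% otherwise. Among single genes, 38 calls were lost and 26 gained over all alternatives, 24 uncalled values changed sign and no called one did.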
